A study of Mus musculus with 16 samples.

Results

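Tgfb2, Inhbb, Nog, Bmpr2 and Ccn2 are 5 genes of TGF-beta and BMP signalling and of its downstream matrix response, described here in ventricles of mouse embryos harvested at E11.5. They were taken by symbol from 5921 gene rows with values, which lie on chromosomes 1, 10 and 11. The 5 were picked with their knockout responses already known, so their differences between cKO (conditional knockout) and control libraries are given as a description. Where calls of the 5 by the fit across all genes are counted, the count stands beside the share of all genes called and supports nothing. The question behind the design is what the transcription factor ATF4 does in heart development. Bulk RNA sequencing was done on 16 libraries in 4 groups of 4, and the levels are in TPM, a library-scaled abundance that also corrects for gene length.

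The groups came from a pair of Atf4 lines, each recombined with Xmlc2-Cre, a transgene active in cardiomyocytes. In the exon 2-3 line, exons 2 and 3 of Atf4 were floxed, and its 4 cKO and 4 control libraries carry the batch label 1. In the exon 2 line, exon 2 alone was floxed, and its 4 cKO and 4 control libraries carry the batch label 2. Line and batch therefore cannot be told apart. All 16 libraries share the genotype label C57BL/6 WT, and whether the controls carry Cre or a floxed allele is not stated in the labels. Only cardiomyocytes are the stated target of the deletion, while the RNA is from the whole ventricle, so a change in cell number and a change in RNA per cell cannot be told apart. Atf4 itself was not analysed here, so the labels were not checked against the deleted gene.

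The libraries looked alike within groups, with the lowest pairwise Pearson r of log2(TPM + 1) in a group between 0.982 and 0.988. The extraction text names cortical neurons, against the tissue label, but cardiomyocyte genes were abundant: Tnnt2, Tnni1, Myl4, Myl7 and Pln summed to between 12450 and 18401 TPM in each library. The exon 2-3 cKO libraries were uneven in blood content: 5 erythroid genes of 11 listed summed to 1544, 5922, 1514 and 11300 TPM in replicates 1 to 4, against 2997 to 4559 TPM in its controls. Values without the fourth of these libraries, a choice made after seeing the data, are given for the 5 genes, for the other pathway genes called and for the marker lists. The rows held make up between 15.2% and 17.1% of the TPM total of a library. Read depth per library is not in the table.

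TGF-beta superfamily ligands are secreted dimers that bring type I and type II serine/threonine kinase receptors together at the cell surface. The receptors phosphorylate Smad proteins, which enter the nucleus and alter transcription, and secreted antagonists such as noggin hold BMP ligands away from their receptors. In the embryonic heart these signals take part in forming the endocardial cushions, which give rise to valves and septa, and in growth of the ventricular wall and epicardium. Ccn2 (connective tissue growth factor) encodes a secreted matricellular protein, and it is a known target of both TGF-beta signalling and the Hippo effectors YAP and TAZ.

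The 250 bases before the transcript start that the RefSeq promoter table uses are shown for both ligand genes because one of them holds most of the motif letters searched and the other holds none. The RefSeq table (GRCm38.p6) had a window for 3 of the 5 genes (Tgfb2, Inhbb and Bmpr2). Capitals mark matches to any of 7 motifs, read on both strands, and both sequences run 5′ to 3′ on the minus strand, at chr1:186705990-186706239 for Tgfb2 and chr1:119422249-119422498 for Inhbb. The start used for Inhbb is the 5′ end of its gene row, but the start used for Tgfb2, 186705989, is not: its row reaches to 186709697, so the Tgfb2 window lies inside the row.
Tgfb2: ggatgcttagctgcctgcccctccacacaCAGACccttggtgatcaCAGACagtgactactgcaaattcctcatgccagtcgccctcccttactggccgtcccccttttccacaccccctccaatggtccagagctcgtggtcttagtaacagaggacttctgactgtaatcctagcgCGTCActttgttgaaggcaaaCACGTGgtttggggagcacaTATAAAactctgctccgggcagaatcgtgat
Inhbb: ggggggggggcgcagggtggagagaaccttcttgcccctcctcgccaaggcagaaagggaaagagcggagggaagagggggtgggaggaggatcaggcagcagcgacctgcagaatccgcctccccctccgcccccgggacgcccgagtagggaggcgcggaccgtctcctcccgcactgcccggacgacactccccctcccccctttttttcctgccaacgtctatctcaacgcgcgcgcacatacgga
In the Tgfb2 window, the Smad box CAGAC occurred at 221 to 217 and at 204 to 200 bases before the transcript start at 186705989. A CRE half-site (TGACG, read here as CGTCA) lay at 72 to 68, the E-box CACGTG at 51 to 46, and the TATA box TATAAA at 31 to 26 bases before that start. None of these matches overlapped another. The Inhbb window held no match to these letters, nor to TGATGNAA (core of the ATF4 composite element), GGCGCC (BMP Smad GC box) or GGAATG (TEAD). The Bmpr2 window held GGCGCC once, at 105 to 100 bases before its RefSeq start, and none of the other 6. Among 32851 RefSeq windows of the same length, 42.2% held CAGAC, 17.8% TGACG, 6.02% CACGTG, 12.4% TATAAA, 3.45% TGATGNAA, 9.59% GGCGCC and 12.6% GGAATG. These are matches of letters and say nothing of binding.

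Tgfb2 (chromosome 1, 186622787 to 186709697 on GRCm38, minus strand, 8 exons) encodes the TGF-beta 2 ligand, which promotes the change of endocardial cells to mesenchyme in the cushions. In exon 2-3 controls its level was 17.1, 22.6, 17.4 and 23.9 TPM in replicates 1 to 4. In exon 2-3 cKO ventricles it was 23.9, 31.8, 33.0 and 36.5 TPM. The cKO libraries were all higher, although the lowest cKO library and the highest control library were level at this precision. The means were 20.3 ± 3.48 and 31.3 ± 5.31 TPM (SD, n = 4), a ratio of 1.55 and a difference of 0.60 (SE 0.14) in log2(TPM + 1). Controls of the exon 2 line read 33.6, 36.2, 39.3 and 35.0 TPM. The exon 2 cKO libraries read 31.9, 36.1, 42.5 and 30.5 TPM, spread on both sides of the controls. There the difference was -0.04 (SE 0.098) in log2(TPM + 1), with means of 36.0 ± 2.43 and 35.2 ± 5.40 TPM (SD, n = 4). All of the exon 2 line lay within or above the range of the exon 2-3 cKO libraries. The Tgfb2 row overlaps Gm26169 and Gm35655 on the other strand, which both averaged under 1 TPM.

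Inhbb (chromosome 1, 119415463 to 119422248, minus strand, 2 exons) encodes the beta B subunit that forms activin B, or inhibin B together with the alpha subunit. It was the least abundant of the 5. Exon 2-3 controls had 0.783, 1.05, 0.639 and 0.769 TPM. Exon 2-3 cKO libraries had 1.09, 0.990, 1.04 and 0.718 TPM, and the groups overlapped. Exon 2 controls had 1.01, 0.811, 0.956 and 1.34 TPM. Exon 2 cKO libraries had 1.22, 1.14, 0.991 and 0.984 TPM, within the span of their controls. The log2(TPM + 1) difference between cKO and control was 0.12 (SE 0.093) in the exon 2-3 line and 0.04 (SE 0.092) in the exon 2 line. At a mean of 0.972 TPM over the 16 libraries Inhbb was under the minimum of 1 TPM for the fits across genes, and both standard errors come from the fit with no such filter.

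Nog (chromosome 11, 89300638 to 89302559, minus strand, 1 exon) encodes noggin, the secreted antagonist of BMP ligands. Its levels were low, at 3.29, 3.00, 1.70 and 2.84 TPM in exon 2-3 controls. They were 3.96, 2.79, 3.28 and 4.11 TPM in exon 2-3 cKO libraries, which overlapped the controls. The means were 2.71 ± 0.697 and 3.53 ± 0.613 TPM (SD, n = 4), and the difference was 0.30 (SE 0.16) in log2(TPM + 1). Control replicate 3 was the lowest library for Nog, and without it the difference was 0.16. Exon 2 controls had 3.05, 3.73, 3.31 and 3.58 TPM, and exon 2 cKO libraries had 4.22, 3.21, 3.73 and 2.93 TPM. The exon 2 cKO libraries held both the highest and the lowest value of that line, with a difference of 0.03 (SE 0.12).

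Bmpr2 (chromosome 1, 59764279 to 59878081, plus strand, 13 exons) encodes the type II receptor of BMP ligands. Exon 2-3 controls had 16.9, 18.4, 15.5 and 16.4 TPM. Exon 2-3 cKO libraries had 18.4, 22.9, 21.8 and 19.1 TPM. Of the 4 cKO libraries, 3 were above every control, and the fourth was just under the highest control. The means were 16.8 ± 1.22 and 20.5 ± 2.13 TPM (SD, n = 4), a ratio of 1.22, and the difference was 0.27 (SE 0.085) in log2(TPM + 1). The exon 2 line had far more Bmpr2 transcript, with 30.0, 28.8, 38.1 and 34.0 TPM in controls. Its cKO libraries had 30.7, 34.0, 36.0 and 32.6 TPM, inside the range of their controls, with a difference of 0.03 (SE 0.089).

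Ccn2 (chromosome 10, 24595442 to 24598683, plus strand, 5 exons) was the most abundant of the 5 genes and differed most between the exon 2-3 groups. Exon 2-3 controls had 76.5, 102, 73.6 and 79.7 TPM. Exon 2-3 cKO libraries had 128, 168, 168 and 159.5 TPM, all well above every control. The means were 82.8 ± 12.7 and 156 ± 18.9 TPM (SD, n = 4), a ratio of 1.88 and a difference of 0.91 (SE 0.11) in log2(TPM + 1). Exon 2 controls had 69.3, 91.5, 103 and 93.4 TPM. Exon 2 cKO libraries had 90.8, 99.5, 111 and 74.6 TPM, which overlapped the controls, with a difference of 0.07 (SE 0.14). Ccn2 was the 1 gene of the 5 whose exon 2-3 cKO libraries were above every library of the other 3 groups. Its value carries an uncertainty: Gm15270, an antisense gene with a mean of 2.08 TPM, shares 665 exonic bases with it, and whether the reads were counted by strand is not given in the sources used here.

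**Figure D1:**
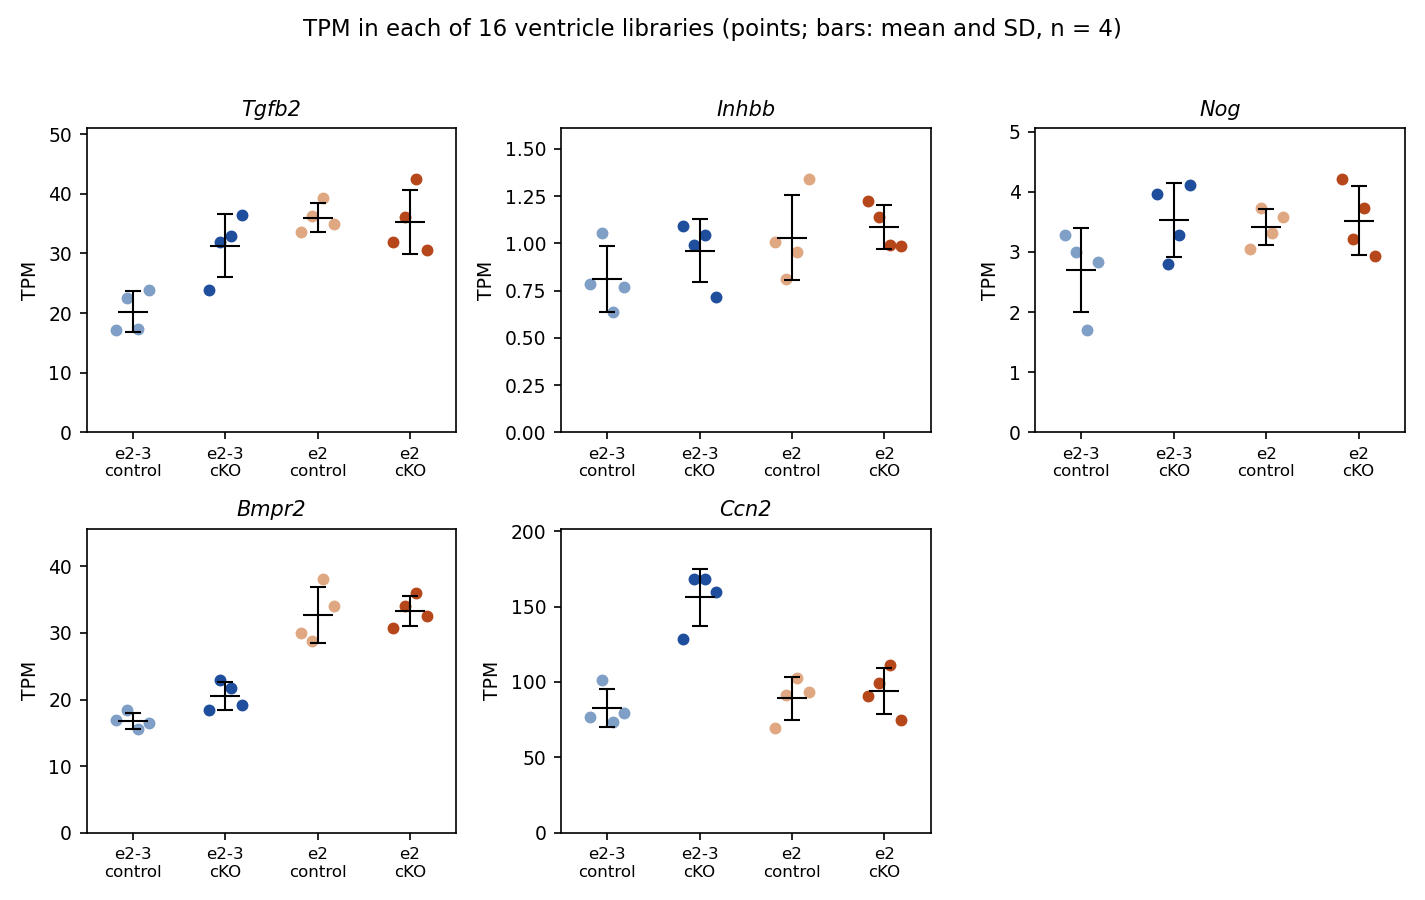
Level of each of the 5 genes in TPM (y axis, a scale of its own for each gene) in the 4 groups of 4 libraries (x axis; e2-3 is the exon 2-3 line and e2 the exon 2 line), with points for libraries and the mean and SD beside them. Ccn2 and Tgfb2 were higher in every exon 2-3 cKO library than in every exon 2-3 control, by a narrow margin for Tgfb2, while the exon 2 groups overlapped for all 5 genes.

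The order of the levels was Ccn2, Tgfb2, Bmpr2, Nog, Inhbb in each of the 4 groups. Ccn2 was apart from Tgfb2, Bmpr2 from Nog and Nog from Inhbb in every group, with no overlap of their library ranges. Tgfb2 and Bmpr2 overlapped in the controls of both lines and in the exon 2 cKO group, but not in the exon 2-3 cKO group. There Tgfb2 stood at 23.9 to 36.5 TPM and Bmpr2 at 18.4 to 22.9 TPM.

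As a count, 2 of the 4 genes that entered the fit (Tgfb2 and Ccn2) passed an adjusted p of 0.05 in the exon 2-3 line, both higher, where 6.72% of all 2620 genes tested passed and 4.16% passed as higher. In 2 of the 5 genes the exon 2-3 groups did not overlap, against 14.5% of all genes, or 9.24% with the cKO libraries higher. Nothing is read from these counts, since the genes were chosen on this contrast. When each library of the line was left out in turn, the Ccn2 difference lay between 0.86 and 1.01 and the Tgfb2 difference between 0.53 and 0.72. The count of 2 held in 2 of those 8 fits, the ones without control replicate 4 or without cKO replicate 1, and in the others Tgfb2 was no longer called. Under 9 alternative settings of the fit, Tgfb2 lost its call with no filter on low values and with no intensity trend. Ccn2 kept its call in all 9. Without cKO replicate 4, the library with the most erythroid transcript, the log2 differences were 0.90 for Ccn2, 0.53 for Tgfb2, 0.30 for Bmpr2, 0.24 for Nog and 0.18 for Inhbb. In the exon 2 line limma called 0 of the 4 genes tested, where 0.0763% of all genes tested passed. At an unadjusted p under 0.05 it was 0 of the 4, against 84 of all 2620 genes tested. Of the 5 genes, 0 were higher and 0 lower with no overlap in that line, against 0.687% and 1.15% of all genes, or 1.83% together.

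The cKO difference of the exon 2-3 line exceeded that of the exon 2 line by 0.83 (SE 0.20) for Ccn2 and 0.64 (SE 0.19) for Tgfb2. For the other 3 genes the gap between lines was smaller, at 0.27 (SE 0.20) for Nog, 0.24 (SE 0.13) for Bmpr2 and 0.07 (SE 0.13) for Inhbb. Ccn2 was the 1 of 4 genes called for this difference, where 2.37% of all genes tested were called. That call was kept in 5 of 16 fits that left out 1 library each. It was kept in 7 of 8 alternative settings and lost with no filter on low values. Without exon 2-3 cKO replicate 4 the gaps were 0.82 for Ccn2 and 0.57 for Tgfb2. These values share the contrasts that chose the genes and are a description.

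**Figure D2:**
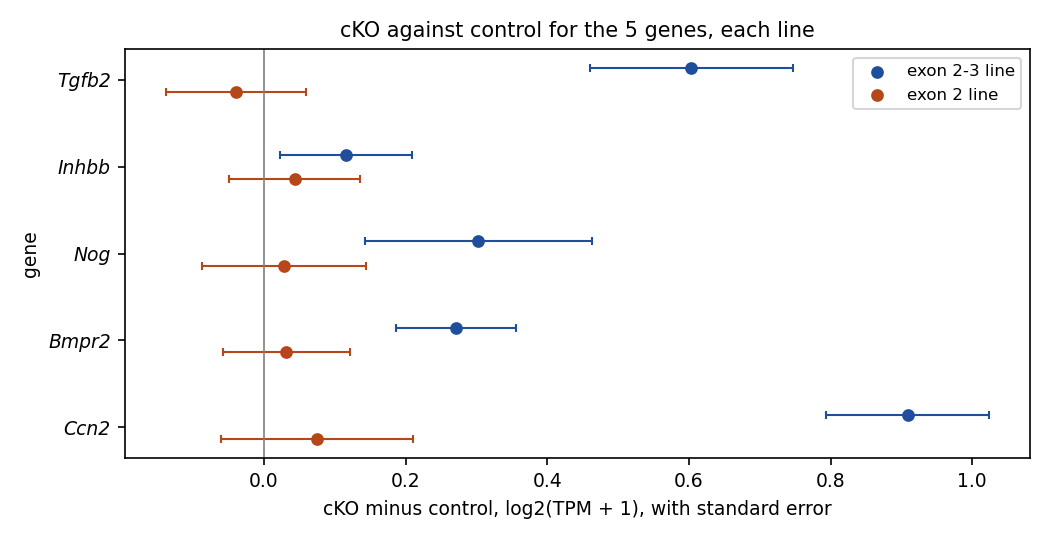
Difference between cKO and control in log2(TPM + 1) on the x axis for the 5 genes (rows), in blue for the exon 2-3 line and in orange for the exon 2 line, with bars for the standard error. The exon 2-3 values run from 0.12 for Inhbb to 0.91 for Ccn2, and the exon 2 values lie between -0.04 and 0.07.

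The other genes of the pathway were taken from a list of 178 ligands, receptors, modulators, Smads, targets and CCN or Hippo genes. This list and the marker lists were chosen with earlier results of these data known. Their counts and adjusted p-values are therefore a description and no independent support. The rows held contain 30 of the 178 genes, and 22 passed the minimum of 1 TPM. In the exon 2-3 line 7 of the 22 rose and 1 fell by limma at an adjusted p under 0.05, and 8 were higher and 1 lower with no overlap of the groups. Among all genes tested 4.16% rose and 2.56% fell, and 9.24% were higher and 5.31% lower with no overlap. Without cKO replicate 4, 6 rose and 1 fell: the Inha difference was 0.32 (limma adjusted p = 0.084), and the other 7 genes kept their calls, with Fn1 at 0.77, Ptpn14 at 0.69, Dcn at 0.69, Col1a1 at 0.68, Col3a1 at 0.44, Col5a2 at 0.37 and Hand1 at -0.62. The median difference of the 22 was 0.12, against 0.032 over all genes. The genes that rose were a ligand subunit, a matrix modulator, 4 matrix targets and a Hippo regulator.

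Among ligands, 1 of 3 tested rose, against 4.16% of all genes tested. Inha, the inhibin alpha subunit that pairs with the product of Inhbb, had 10.3, 9.69, 10.4 and 11.1 TPM in exon 2-3 controls and 12.0, 14.6, 13.2 and 16.8 TPM in cKO libraries. All 4 cKO libraries were higher, and the difference was 0.40 (SE 0.10, limma adjusted p = 0.0408). That call was lost in 6 of 8 fits that left out 1 library, with an adjusted p of up to 0.114. Gdf11 and Mstn, closely related ligands that act through activin receptors, did not pass, at -0.03 and -0.13. Inhbc, Gdf9, Lefty1, Lefty2 and Amh averaged under 1 TPM and were not tested.

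Among the extracellular modulators, 1 of 3 tested rose, against 4.16% of all genes tested. Dcn encodes decorin, a small proteoglycan that binds collagen and TGF-beta. Its level was 49.8, 46.2, 48.2 and 39.6 TPM in exon 2-3 controls and 74.9, 79.4, 69.8 and 60.5 TPM in cKO libraries. The groups were well apart, with a difference of 0.62 (SE 0.095, limma adjusted p = 0.00635). Fstl3, a binding protein of activins, and Sost, which encodes sclerostin, did not pass, at 0.18 and 0.10. Cfc1, the 1 co-receptor held, averaged under 1 TPM and was not tested. The 5 intracellular regulators (Tab2, Lemd3, Usp15, Ctdnep1 and Tgfbrap1) did not pass either, at -0.02 to 0.14.

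Of the 6 target genes tested 4 rose, all of them matrix genes, and 1 fell, against 4.16% and 2.56% of all genes tested. Fn1, which encodes fibronectin, had 334, 381, 355 and 393 TPM in exon 2-3 controls and 666, 609, 601 and 640.2 TPM in cKO libraries. Every cKO library was far above every control, with means of 366 ± 26.5 and 629 ± 29.7 TPM (SD, n = 4) and a difference of 0.78 (SE 0.062, limma adjusted p = 0.000107). The 3 fibrillar collagen genes held rose with it. Col1a1 went from 44.0 ± 4.49 to 69.9 ± 9.56 TPM (SD, n = 4), a difference of 0.65 (SE 0.10, limma adjusted p = 0.00652). Col3a1 went from 144 ± 17.2 to 198 ± 5.79 TPM (SD, n = 4), a difference of 0.46 (SE 0.078, limma adjusted p = 0.00939). Col5a2 went from 74.8 ± 4.27 to 93.5 ± 6.76 TPM (SD, n = 4), a difference of 0.32 (SE 0.066, limma adjusted p = 0.0232). The groups did not overlap for any of the 3 collagens. The Col5a2 call was lost in 5 of 8 fits that left out 1 library, with an adjusted p of up to 0.0723.

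Neither transcription factor among the targets rose. Hand1, a basic helix-loop-helix factor of the ventricles and a known BMP target, had 65.5, 58.0, 55.6 and 71.5 TPM in exon 2-3 controls and 40.2, 36.3, 45.1 and 41.7 TPM in cKO libraries. All cKO libraries were lower, and Hand1 fell by 0.60 (SE 0.091, limma adjusted p = 0.00573). Tbx2, a T-box factor of the atrioventricular canal that BMP signals induce, had 2.37, 5.75, 3.92 and 10.7 TPM in exon 2-3 controls and 1.97, 5.41, 6.19 and 9.41 TPM in cKO libraries. Its libraries varied widely within both groups, and the difference was 0.03 (SE 0.42). The Hand1 row overlaps Gm32915 on the other strand, which averaged 3.73 TPM.

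In the CCN and Hippo group, 1 of 5 tested rose, against 4.16% of all genes tested. Ptpn14, a phosphatase that binds YAP, had 14.8, 16.7, 14.3 and 15.3 TPM in exon 2-3 controls and 26.3, 24.5, 24.5 and 24.9 TPM in cKO libraries. The groups were far apart, with a difference of 0.68 (SE 0.064, limma adjusted p = 0.000298). Wwc1, Lats1, Nf2 and Taok1, which belong to the Hippo pathway, had differences of 0.10 to 0.20 and did not pass. The Wwc1 groups did not overlap, at 4.78 to 5.74 TPM in exon 2-3 controls and 5.93 to 6.24 TPM in cKO libraries. Ccn6 averaged under 1 TPM. In the exon 2 line limma called 0 of the 22 genes, against 0.0763% of all genes tested. Of the 22, 0 had an unadjusted p under 0.05, against 84 of all 2620 genes. No gene's groups among the 22 were separate, against 1.83% of all genes. The median of the 22 there was -0.03, and the values ran from -0.15 to 0.13.

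**Figure D3:**
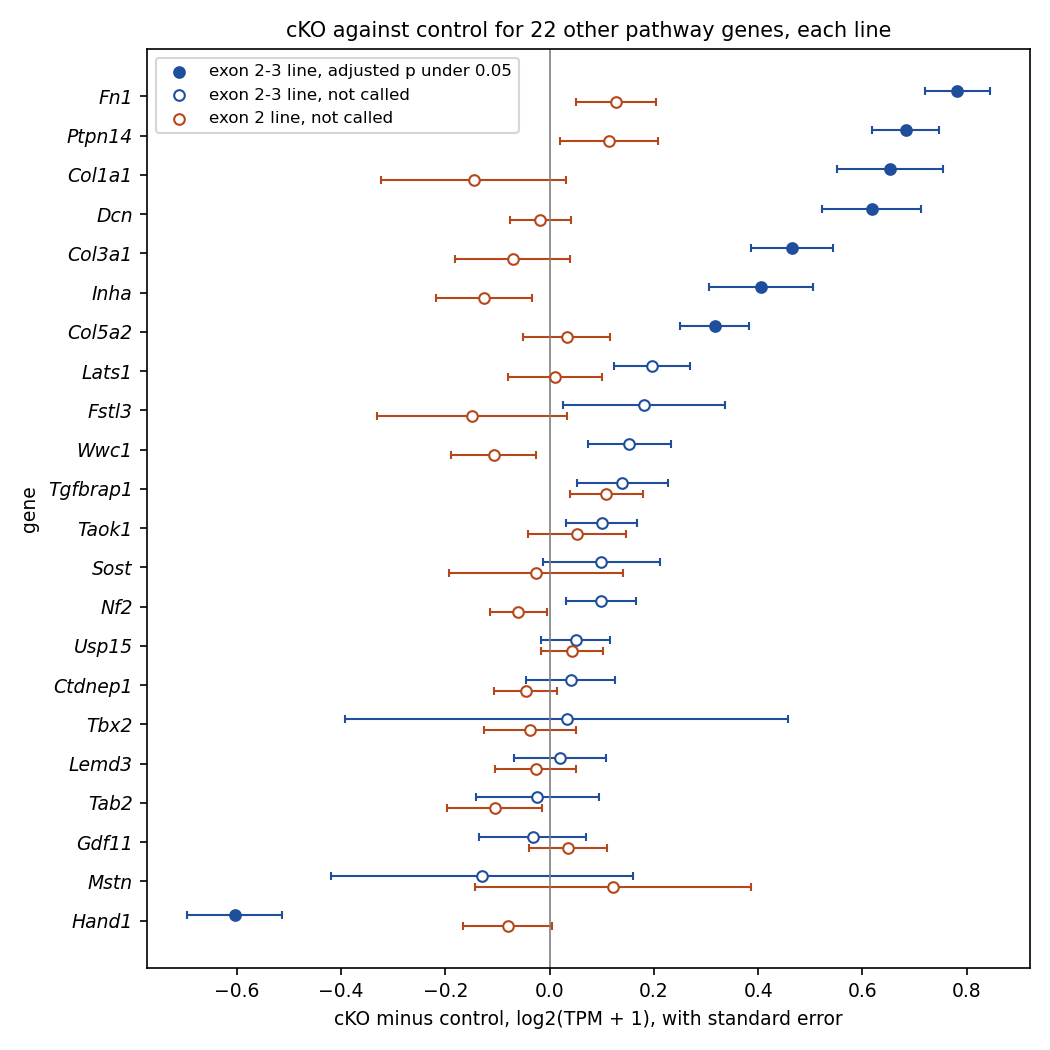
Difference between cKO and control in log2(TPM + 1), with its standard error, for the 22 other pathway genes tested, in the exon 2-3 line and the exon 2 line; filled points have a limma adjusted p under 0.05. In the exon 2-3 line 7 points are filled above 0 and Hand1 is filled below 0, and in the exon 2 line no point is filled.

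A test of the difference between lines called 4 of the 22 genes, 3 with a higher effect in the exon 2-3 line and 1 with a lower one. The background was 1.6% of all genes called higher and 0.763% called lower. Fn1 differed by 0.65 (limma adjusted p = 0.00131), Dcn by 0.64 (limma adjusted p = 0.00505) and Ptpn14 by 0.57 (limma adjusted p = 0.0138). Hand1 differed by -0.52 (limma adjusted p = 0.0481), a call lost in 12 of 16 fits that left out 1 library. Without exon 2-3 cKO replicate 4, Fn1 (0.65), Dcn (0.71) and Ptpn14 (0.57) kept their calls and Hand1 did not (-0.53, limma adjusted p = 0.0704). Col1a1 (0.80, limma adjusted p = 0.0818), Col3a1 (0.54, limma adjusted p = 0.0687) and Inha (0.53, limma adjusted p = 0.0521) missed the threshold for this difference.

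Some markers of other cell types moved in the same contrast. The mesenchymal and cushion list had 7 of 14 genes among the rows, and 4 of the 7 (Col1a1, Col3a1, Col5a2 and Dcn, which the pathway list also holds) rose in the exon 2-3 line. The summed level of the 7 was 294 to 338 TPM in exon 2-3 controls and 435 to 476 TPM in cKO libraries, with no overlap. This sum is mostly those 4 genes and so repeats their result. Lum, Prrx1 and Meox1 averaged 7.29, 1.15 and 3.21 TPM in exon 2-3 controls. Lum, Prrx1 and Meox1 were not called, and their groups overlapped. Lum had 5.60 to 9.39 TPM in controls and 8.22 to 14.3 TPM in cKO libraries. In cKO replicate 1, Prrx1 (0.179 TPM) and Meox1 (0.508 TPM) were below every control. Of 8 epicardial markers, 2 were among the rows, and both rose: Tcf21, a transcription factor of the epicardium, by 0.70 (limma adjusted p = 0.000969), and Krt19, a keratin, by 0.41 (limma adjusted p = 0.0143). Their sum was 116 to 131 TPM in controls and 168 to 191 TPM in cKO libraries. Among all genes tested 4.16% were called higher in this contrast. Without cKO replicate 4 the counts called were again 4 of 7 and 2 of 2, with Tcf21 at 0.73 and Krt19 at 0.44. In the exon 2 line both sums overlapped, at 450 to 644 TPM in controls and 435 to 579 TPM in cKO libraries for mesenchyme, and 108 to 125 and 99.5 to 121 TPM for epicardium.

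The remaining lists had no gene called in the exon 2-3 line. The 5 cardiomyocyte genes of 16 listed summed to 16941 to 18401 TPM in controls and 16456 to 17434 TPM in cKO libraries. Tnni1 was lower in every cKO library (1556 to 2743 TPM) than in every control (2772 to 3252 TPM), but was not called. The 3 endothelial genes of 17 (Sox17, Ramp2 and Nrp2) summed to 139 to 186 TPM and 170.4 to 195 TPM. The 7 myeloid genes of 9, of which 4 were tested, summed to 99.0 to 104 TPM and 88.4 to 102 TPM. Of them Lyz2 was lower in every cKO library, at 66.0 to 77.1 TPM against 77.4 to 82.8 TPM in controls. Among all genes tested 5.31% were lower with no overlap. No marker held averaged under 0.1 TPM in any group. The mesenchymal and epicardial sums were thus higher in the same exon 2-3 cKO libraries as Ccn2 and Tgfb2. The part of these cell types in the Ccn2 and Tgfb2 differences was not tested.

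**Figure D4:**
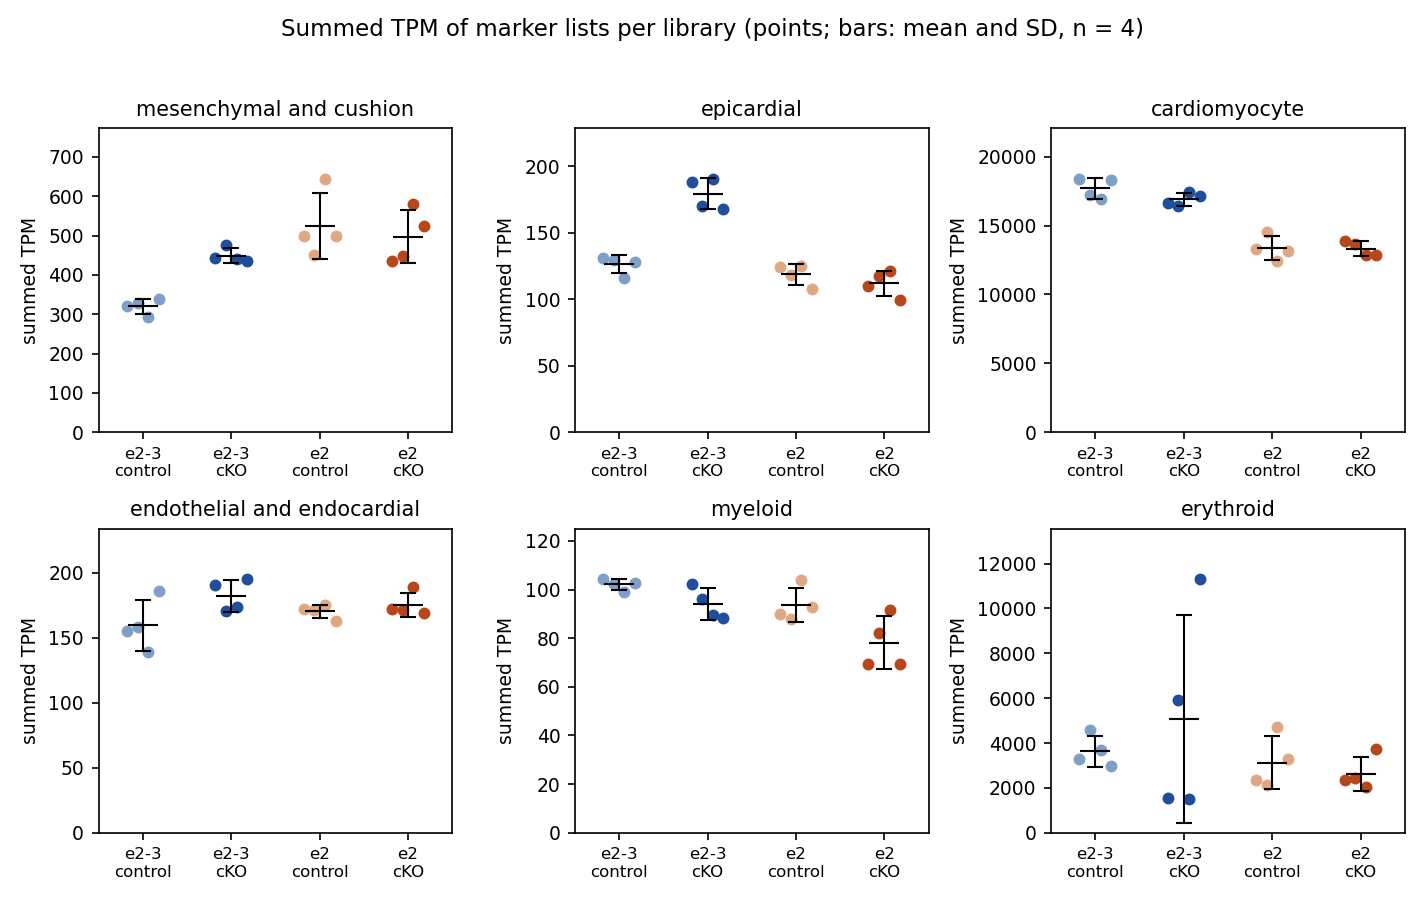
Summed TPM of the marker genes held for each cell type (panels, y axes of their own) in each library of the 4 groups, with the mean and SD. The mesenchymal and epicardial sums of the exon 2-3 cKO libraries lie above those of the exon 2-3 controls, while the cardiomyocyte sums overlap and the erythroid sums of the exon 2-3 cKO libraries spread from 1514 to 11300 TPM.

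The control ventricles of the lines were set side by side. The exon 2-3 controls are also part of the contrast on which the 5 genes were chosen, so these values too are a description of the 5, with no p. Bmpr2 and Tgfb2 were lower in exon 2-3 controls than in exon 2 controls. Bmpr2 had 15.5 to 18.4 TPM in the first and 28.8 to 38.1 TPM in the second, a ratio of 0.514 and a difference of -0.91 (SE 0.090). Tgfb2 had 17.1 to 23.9 TPM against 33.6 to 39.3 TPM, a ratio of 0.562 and a difference of -0.81 (SE 0.13). For both genes the groups did not overlap.

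The groups of the other 3 genes overlapped. Nog differed by -0.27 (SE 0.14), lower in exon 2-3 controls on average. Ccn2 differed by -0.10 (SE 0.14), and the sign turned to 0.08 under median centring. Inhbb differed by -0.16, and by 0.020 under median centring.

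Many genes differed between the lines' controls. Of all 2620 genes 52.6% were called and 38.1% were called lower in exon 2-3 controls, and the groups did not overlap in 45.5%, or 32.6% with exon 2-3 controls lower. Of the 4 genes that entered the fit, 2 (Bmpr2 and Tgfb2) were called, both lower, and nothing is read from that count. The median gene stood at -0.14, and Bmpr2 and Tgfb2 stood well below it. With each library centred on its median they differed by -0.73 and -0.63, and with quantile normalization by -0.79 and -0.69.

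Of the 22 other pathway genes, 19 were lower and 1 was higher in exon 2-3 controls, with a median of -0.41, and 14 were lower with no overlap. Under median centring 12 were lower and 1 was higher. Col1a1 (-1.23, limma adjusted p = 1.23e-05), Tbx2 (-0.97, limma adjusted p = 0.023) and Mstn (-0.80, limma adjusted p = 0.0349) were lowest among those called. Dcn (0.22, limma adjusted p = 0.0319) was the 1 gene called higher, and Ctdnep1 (-0.23) and Usp15 (-0.16) were nearest to it among those called. The groups of Tbx2, Mstn, Dcn and Ctdnep1 overlapped. The calls of Tbx2, Mstn and Dcn were lost in 5, 6 and 7 other fits, among them those without exon 2-3 control replicate 1, exon 2-3 control replicate 3 or exon 2 control replicate 1. Ctdnep1 lost its call in 3, those without exon 2-3 control replicate 2 or 3 and with median centring. The Ctdnep1 row overlaps Elp5 on the other strand, with a mean nearly as high as that of Ctdnep1 (71.6 TPM). Lats1 (11.6 TPM) and Tgfbrap1 (11.4 TPM), also called lower, overlap rows on the other strand with higher means, Pcmt1 (33.2 TPM) and AI597479. What such rows add to these values was not tested, and the strand setting is not given. Usp15 lost its call without exon 2-3 control replicate 3 and without exon 2 control replicate 1, and its sign turned under both quantile normalization and median centring. In the same contrast 6 of 7 mesenchymal markers were called lower and 1 higher, and 4 of 5 cardiomyocyte markers were called higher in exon 2-3 controls. Of 3 endothelial markers 2 were called lower. The 2 epicardial and the 4 myeloid markers tested each had 1 called higher and 1 called lower, and 0 of 5 erythroid markers were called. Among all genes tested 14.4% were called higher and 38.1% lower. Marker counts were not made under median centring. What part cell makeup has in these differences was not tested, and line and batch cannot be told apart here.

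**Figure D5:**
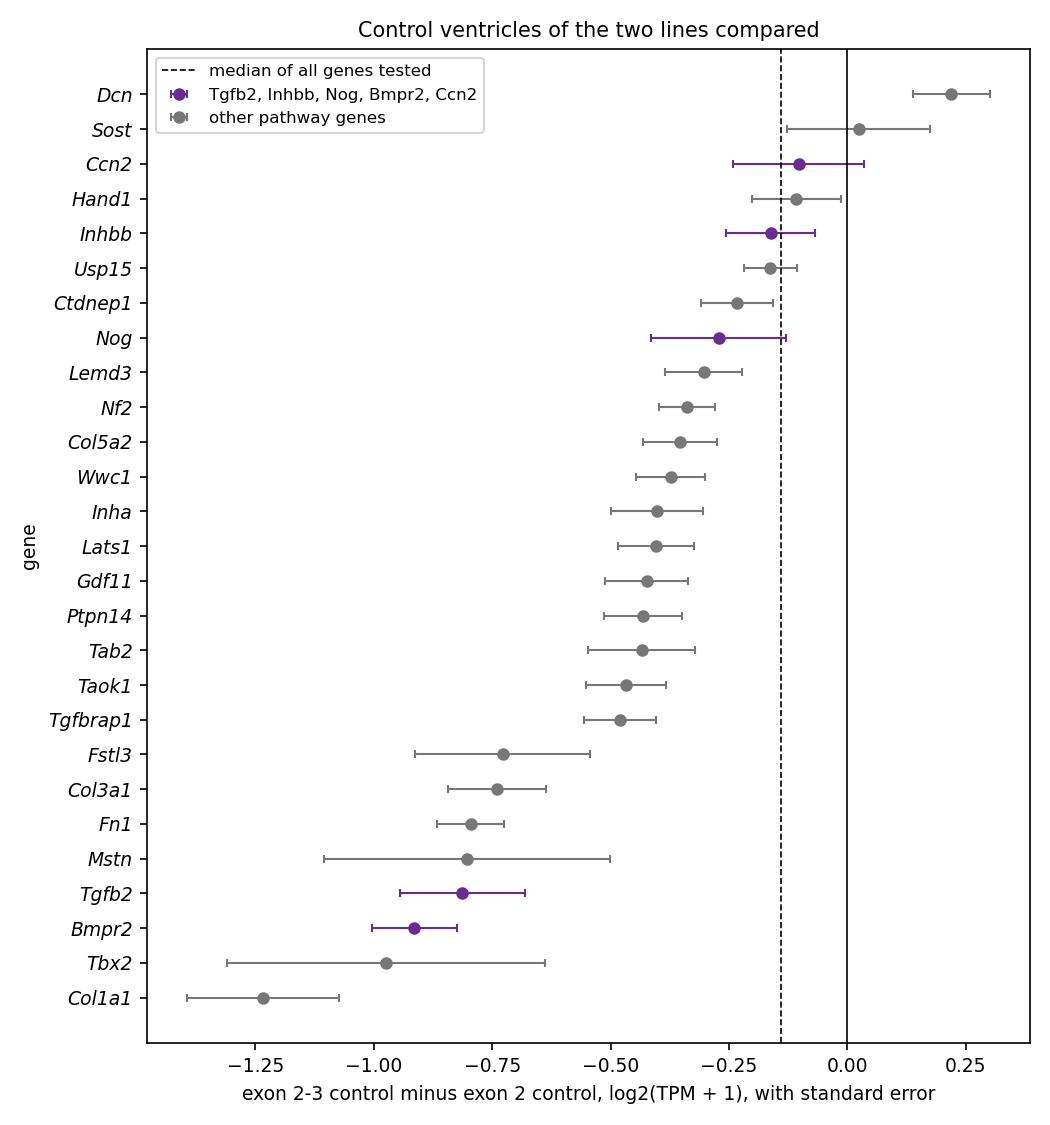
Exon 2-3 control minus exon 2 control in log2(TPM + 1), with its standard error, for the 5 genes and the other pathway genes, with the median of all genes tested (-0.14) as a dashed line. Bmpr2 and Tgfb2 lie at -0.91 and -0.81, and Ccn2 lies near the dashed line at -0.10, a sign that turned under median centring.

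Side by side, the group means show different standings of the 5 genes. Bmpr2 in exon 2-3 cKO ventricles (20.5 TPM) was still below the exon 2 controls (32.7 TPM), with no overlap. Tgfb2 in exon 2-3 cKO ventricles (31.3 TPM) overlapped the exon 2 controls (36.0 TPM). Ccn2 in exon 2-3 cKO ventricles (156 TPM) was above the exon 2 controls (89.2 TPM), with no overlap. Fn1 in exon 2-3 cKO ventricles (629 TPM) overlapped the exon 2 controls (635 TPM). These libraries differ in line and batch as well as in genotype.

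The likeness of other genes to each member was measured by Pearson's r of log2(TPM + 1) over the 16 libraries after the mean of each line was removed. The points share libraries and the cKO difference of the exon 2-3 line, so the values are a description. For Ccn2 the nearest genes were Tob1 (0.936), Irs1 (0.932) and Tgfb2 itself (0.896). For Tgfb2 they were Bcr (0.919), Tagln2 (0.918) and Tob1 (0.915), and for Bmpr2 Ppp1r12a (0.906), Irs1 (0.890) and Ikzf2 (0.878). Tob1 was thus among the nearest 3 of both Ccn2 and Tgfb2, and Irs1 among those of both Ccn2 and Bmpr2. In the exon 2 line alone Tob1 stood at 0.667 with Ccn2 and 0.683 with Tgfb2. Irs1 there stood at 0.636 with Ccn2 and 0.908 with Bmpr2. Nog had Tmem259 (0.814), Nus1 (0.810) and Tysnd1 (0.806), and Inhbb had Gm15910 (0.779), Ildr2 (0.732) and Glns-ps1 (0.724). In the exon 2 line alone Tmem259, Nus1 and Tysnd1 stood at 0.717, 0.254 and 0.619 with Nog. Gm15910, Ildr2 and Glns-ps1 there stood at 0.808, 0.367 and 0.912 with Inhbb. In the exon 2-3 line Nus1 stood at 0.943 and Ildr2 at 0.910. Gm15910 and Glns-ps1 were low, at means of 1.62 and 1.76 TPM.

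Among the 5 genes, Ccn2, Tgfb2 and Bmpr2 varied together, less closely in the exon 2 line. The r of Ccn2 with Tgfb2 was 0.915 over the 8 libraries of the exon 2-3 line and 0.793 over the 8 of the exon 2 line, where neither gene separated cKO from control. Ccn2 with Bmpr2 gave 0.828 over all 16, with 0.916 in the exon 2-3 line and 0.626 in the exon 2 line. Tgfb2 with Bmpr2 gave 0.726 over all 16, with 0.795 and 0.594 in the same order. Values below are over all 16 unless a line is named. Nog had 0.540 with Ccn2, 0.475 with Tgfb2 and 0.255 with Bmpr2. Inhbb had 0.469 with Bmpr2, 0.393 with Ccn2 and 0.165 with Tgfb2, and Nog with Inhbb gave 0.360. Each of these pairs with Nog or Inhbb had a lower r in the exon 2 line than in the exon 2-3 line. Nog with Bmpr2 gave -0.146 in the exon 2 line and 0.398 in the exon 2-3 line. Inhbb with Tgfb2 gave -0.271 and 0.321 in the same order, and Inhbb with Ccn2 gave 0.075 and 0.537. Nog with Ccn2 changed least, with 0.520 and 0.544.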

How the data were processed

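RNA from 16 ventricle libraries was analysed from a deposited table of TPM, a length-corrected abundance scaled to the same total in each library, of which rows on chromosomes 1, 10 and 11 (to position 106501211) were used; 1 incomplete last row was left out. The submitters' processing notes name FastQC, Trim Galore 0.6.7, HISAT2 2.2.1, StringTie 2.2.1, featureCounts, DESeq2 and GRCm38. Which of these the authors used to make the TPM, and the strand setting, are not given in the sources used here. The labels' protocols name both ribosomal RNA depletion and mRNA libraries. TPM keeps no read depth, so no counting error could be given. TPM is also a share of each library, so a rise in abundant transcripts lowers all others.

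Values were tested as log2(TPM + 1) with limma 3.58.1 (R 4.3.3, empirical Bayes with an intensity trend, Benjamini-Hochberg adjustment over all genes tested, threshold 0.05), for 2620 genes with a mean of at least 1 TPM. Differences on this scale understate the change of low genes. Each line was fitted on its 8 libraries, and the line difference and the control contrast on all 16. The fits were run on simulated data with independent noise around the mean of each gene. The simulation held no line, batch, blood or scaling difference, so it does not bear on those. The members and gene lists were chosen with earlier results of these data known. Pathway genes are named if they passed in a cKO contrast or in the line difference; in the control contrast the 3 highest and 3 lowest called are named, and for likeness 3 genes per member. A few others are named to fill out a group, chosen after their values were seen. Replicates are biological per the labels; whether embryos shared a litter is not stated. Replicate numbers were not taken as pairs. Alternatives were a pseudocount of 0.1, no filter, a minimum mean of 5 TPM, quantile normalization, median centring, rescaling without 5 hemoglobin genes, one fit over all libraries, a replicate block, no intensity trend, and leaving out each library. The marker lists without exon 2-3 cKO replicate 4 were added after seeing the data. Coordinates are 1-based from the table and equal RefSeq's on GRCm38.p6 for all 5 genes.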

Additional observations from a re-analysis of the deposited data

Results flagged for a closer look

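In the 68 sets of 4 libraries checked, 5 held a library whose gap to the next was large for the range of its group, and chance gives about 1 in 20. Dcn was 41.7 TPM in exon 2 control replicate 3, with the next library at 38.6 TPM. Col5a2 in the same library was 105 TPM, with the next at 93.2 TPM. Col1a1 was 84.2 TPM in exon 2-3 cKO replicate 2, with the next at 65.6 TPM. Col3a1 was 206 TPM in exon 2-3 cKO replicate 4, with the next at 195 TPM. Tbx2 was 12.3 TPM in exon 2 control replicate 1, with the next at 10.6 TPM. None of the 5 members was among these.

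The cKO effect differed between the lines by a test of the difference for 4 other pathway genes: Fn1 by 0.65, Dcn by 0.64, Ptpn14 by 0.57 and Hand1 by -0.52 in log2(TPM + 1). The Hand1 call was lost in 12 of 16 fits that left out 1 library. Line and batch cannot be told apart in these differences.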

How the results depend on the processing

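The number of genes called for exon 2-3 cKO against control was 176. It was 95 with no filter, 305 with quantile normalization, 343 with median centring and 269 when rescaled without hemoglobin genes, and 70 (without cKO replicate 3) to 190.0 (without control replicate 3) when each library was left out. Of those calls 61.9% were higher, against 50.8% with quantile normalization and 41.4% with median centring. In the exon 2 line the count of 2 became 4 in one fit over all libraries and 2 to 4 with libraries left out (4 without control replicate 3). For the difference between lines it was 62, with 133 under quantile normalization, 127 under median centring and 36 (without exon 2 cKO replicate 2) to 84 (without exon 2-3 control replicate 4) with libraries left out. The share higher there was 67.7%, with 53.4% under quantile normalization and 52.0% under median centring. For the controls it was 27.5%, 39.9% and 57.7% in the same order. The other pathway genes called for the difference between lines numbered 4, and 3 to 7 with libraries left out (7 without exon 2 cKO replicate 3). Those called between controls numbered 20, and 13 under median centring. Between controls, median centring also moved Ccn2 from -0.10 to 0.078 and Inhbb from -0.16 to 0.020, and Usp15 turned from -0.16 to 0.017 with quantile normalization and 0.018 with median centring. The cause of these shifts was not tested. The members' cKO differences kept their direction in the exon 2-3 line under every alternative run. Their calls did not all hold: Tgfb2 lost its call there with no filter and with no intensity trend. The Ccn2 call for the difference between lines was lost with no filter. Nog had no value in the fits with a minimum of 5 TPM, and Inhbb was tested only with no filter.

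Same-numbered libraries deviated together by correlations of -0.029, 0.053, -0.0063 and 0.21 in the exon 2-3 line and 0.098, 0.17, 0.20 and 0.064 in the exon 2 line, so the numbers were not taken to pair the samples. The best match was the own number in 1 of 4 and 3 of 4 cases. With the replicate block, 7 other pathway genes were called for the difference between lines in place of 4, and 7 in place of 8 in the exon 2-3 line.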
